A study of Mus musculus with 24 samples.

Results

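Lungs of irradiated mice that also received the agent labelled Ly (IR+Ly) were compared with lungs of mice that were irradiated alone (IR), with no kinase inhibitor in either group. The comparison rests on 4 of the 24 single-colour Agilent arrays of the study, chosen by their titles, 2 biological replicates in each group. All 24 arrays measured RNA of shock-frozen mouse lung at 24 days after irradiation, in 12 groups, 6 irradiated and 6 not, that differ in whether Ly, Imatinib or Su was given and in whether Ly was paired with either kinase inhibitor. The groups used here are IR+Ly and IR, and, beside them, Ly without irradiation (Ly) and mice with neither (untreated), 2 arrays each. The labels give no strain, age, dose of irradiation, dose or schedule of Ly, and do not say whether an array holds RNA of 1 animal or of several. They give Ly only in that short form. The series title is about blocking TGF-beta together with PDGF signals to lessen lung fibrosis after radiation, and the comparison asks how expression in the irradiated lung differs when Ly is added.

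Transforming growth factor beta is a secreted cytokine that is stored in the matrix in a latent form, is released there among others by integrins, and signals through a pair of receptor kinases to the Smad transcription factors. In the injured lung it is known for driving fibroblasts to deposit collagen, and it also restrains lymphocytes and shapes macrophages. Radiation injury of the lung passes from an early inflammatory phase, with chemokine release and entry of monocytes and macrophages, to fibrosis weeks to months later.

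Values are the log2 intensity of a gene minus the log2 of the 75th percentile of its array, so that a level of 0 is the 75th percentile and a difference of 1 is a doubling. Levels of different genes come from different probes and are not compared with each other. A gene was tested when it was marked well above background on both arrays of at least 1 of the 12 groups, and 20409 genes were. Differences are IR+Ly minus IR, given with the standard error (SE) of limma, which was fitted over all 24 arrays, and with n = 2 arrays in each group. A gene is called when its Benjamini-Hochberg adjusted p, computed across the 20409 genes, is under 0.05.

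Array IR 1 stood apart from the others. Most of the 188 calls described below were lost without it, and most were also lost when either IR+Ly array was left out. The 75th percentile of its signal was 2478, against 703 to 1759 on the other 23 arrays, and across genes it correlated with the remaining arrays at a median of 0.958, against 0.980 to 0.986 for the other 3 arrays of its slide. Its spike-in probes had the lowest mean log2 signal, 8.51 against 9.18 to 10.67. All 4 arrays of IR+Ly and IR lay on slide 4, IR at positions 1 and 2 and IR+Ly at positions 3 and 4, so that position and group cannot be told apart; Ly and untreated shared slide 1. Results below are therefore also given without IR 1, in which case the lone IR array is assumed to vary like the arrays of the other groups. The fit with all 24 arrays shares this assumption, so its SE and adjusted p do not describe the spread of these 4 arrays alone. Across genes the 2 IR arrays correlated at 0.973, lower than in the other groups, and the 2 IR+Ly arrays at 0.987. Array weights, lower for arrays that vary more, were 0.177 for each IR array and 0.712 for each IR+Ly array. The main fit did not use them. The lung label held: the surfactant genes Sftpc, Sftpb, Sftpa1 and Sftpd, the type I cell gene Ager, the airway genes Scgb1a1, Scgb3a2 and Foxj1 and the endothelial genes Cldn5 and Cdh5 were well above background on all 24 arrays, and none of them was called.

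In all, 133 genes were higher in IR+Ly and 55 lower. These 188 genes are 0.921% of the genes tested, 0.652% for the higher and 0.269% for the lower ones. Of the higher genes 99 carried no gene symbol, only the name of a cDNA clone or probe, which is 74.4% of them, against 14.5% of the lower genes and 21.8% of all genes tested. The probes of the higher genes were dim: on average they were at -2.45 and -2.41 on the IR+Ly arrays, against -3.82 and -3.34 on the IR arrays. The lower genes averaged -1.24 and -1.13 on the IR+Ly arrays, against 0.23 and -0.06 on the IR arrays. Over all genes tested, 52.9% of the differences were below 0 and 47.1% above, 19.7% had both IR+Ly arrays below both IR arrays and 19.6% had both above; the counts for gene lists below stand against these shares and those of the called genes. On the Ly arrays the lower genes averaged -1.17 and -1.15, and on the untreated arrays -1.16 and -1.25.

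When IR 1 was left out, 33 genes were called, 0.162% of those tested: 12 higher (0.0588%) and 21 lower (0.103%). Of these 33, 8 were among the 188. Without IR 2 the counts were 3495 and 4271, without IR+Ly 1 they were 10 and 5, and without IR+Ly 2 they were 34 and 17. All 188 genes kept the sign of their difference when either IR array was left out. They were called on these same arrays, so that keeping the sign was largely fixed by the call. The median size of the difference was 0.81 without IR 1 and 1.22 without IR 2. The 8 genes called in both cases were Spp1, Bora and Kcne3, which fell, 5530601H04Rik, which rose, and 4 probes or clones without a symbol. The clone AK034336 was among these 4. It was well above background on the IR arrays alone and was tested only because it was measured there. Its call, with or without IR 1, was therefore largely fixed by the rule for testing a gene.

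**Figure D1:**
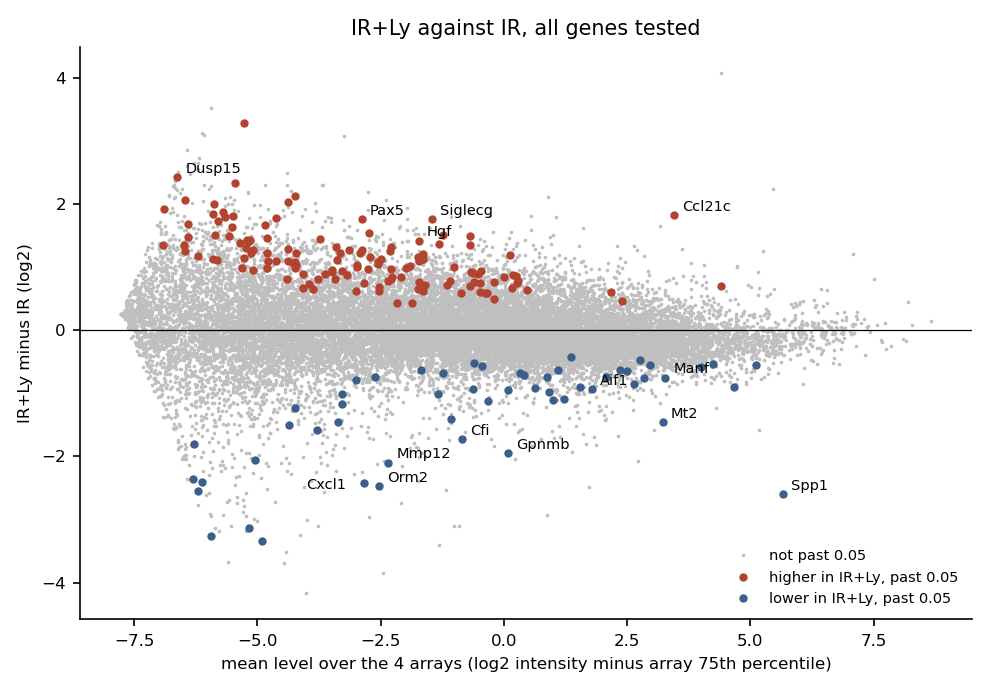
Difference of IR+Ly minus IR (vertical axis, log2) against the mean level over the 4 arrays (horizontal axis, log2 intensity minus the 75th percentile of the array) for the 20409 genes tested, with the 133 genes called higher in IR+Ly and the 55 called lower in colour. Spp1 lies far below 0 with a bright probe, while most of the higher genes lie in the left part of the plot, where probes are dim.

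The promoters of 3 secreted proteins that fell are shown because all 3 genes fell and have known roles in lung injury. The sequences are the 250 bases before a transcription start in RefSeq, mouse assembly GRCm38.p6, plus strand, written 5′ to 3′; capitals mark matches to a motif. Spp1 encodes osteopontin (chr5:104434861-104435110), Cxcl1 a neutrophil chemokine (chr5:90890995-90891244) and Mmp12 the elastase of macrophages (chr9:7347124-7347373, the second of 2 starts).
Spp1: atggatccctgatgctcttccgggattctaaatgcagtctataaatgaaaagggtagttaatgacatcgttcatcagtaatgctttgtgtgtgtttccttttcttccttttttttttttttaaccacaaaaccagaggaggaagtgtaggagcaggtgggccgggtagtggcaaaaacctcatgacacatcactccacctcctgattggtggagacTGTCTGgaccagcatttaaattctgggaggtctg
Cxcl1: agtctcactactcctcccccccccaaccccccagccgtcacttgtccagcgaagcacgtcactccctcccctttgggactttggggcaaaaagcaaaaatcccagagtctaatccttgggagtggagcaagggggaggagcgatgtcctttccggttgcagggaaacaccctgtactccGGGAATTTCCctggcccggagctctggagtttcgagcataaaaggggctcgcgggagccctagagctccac
Mmp12: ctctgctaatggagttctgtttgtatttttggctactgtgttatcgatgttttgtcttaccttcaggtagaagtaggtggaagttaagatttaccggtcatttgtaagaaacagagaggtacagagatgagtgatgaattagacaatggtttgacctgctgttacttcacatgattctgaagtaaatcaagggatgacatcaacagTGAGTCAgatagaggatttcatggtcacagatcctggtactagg
Each was searched on both strands for TGACTCA, a motif of AP-1 (Fos and Jun proteins), a motif of NF-kappaB, and CAGACA, the Smad-binding CAGA box. The Cxcl1 window held GGGAATTTCC, which begins 71 bases before the start, and 0.98% of the 32851 promoter windows of the table hold the NF-kappaB motif. The Mmp12 window held TGAGTCA, the AP-1 motif read on the other strand, 44 bases before the start; 4.46% of all windows hold it. The Spp1 window held TGTCTG, the CAGA box read on the other strand, 34 bases before the start, as 17.1% of all windows do. The other start of Spp1 and the other start of Mmp12 held none of the 3 motifs, so that for both genes the window shown is the one with a match. The shares given count single windows and make no allowance for a choice between 2 starts. A match is a description of letters and no evidence of binding.

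Among genes of macrophages that handle lipid and matrix, Spp1, Mmp12 and Gpnmb fell, and Spp1 was the 1 of them also called without IR 1. Spp1, on chromosome 5, encodes osteopontin, a secreted phosphoprotein that macrophages and epithelial cells make in injured and fibrotic lung. It had levels of 4.31 and 4.42 on the IR+Ly arrays, against 7.23 and 6.68 on the IR arrays. The groups did not overlap, and both IR+Ly arrays lay near the levels without irradiation, which were 4.63 and 4.25 on the Ly arrays and 4.81 and 4.58 on the untreated arrays. Spp1 fell by 2.59 ± 0.27 (adjusted p = 0.00153 in limma), 6.04-fold, and its adjusted p was 0.00854 without IR 1. Its mean level in the other irradiated groups, which lay on other slides, was 4.24 in IR+Imatinib, 3.48 in IR+Su, 4.25 in IR+Ly+Imatinib and 3.75 in IR+Ly+Su.

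Mmp12, the macrophage elastase that degrades elastin, had levels of -3.64 and -3.15 on the IR+Ly arrays, against -1.40 and -1.19 on the IR arrays. Both IR+Ly arrays were lower than both IR arrays, and the 2 arrays of each group were close to each other. The difference was -2.10 ± 0.42 (adjusted p = 0.0413 in limma, and 0.184 without IR 1, where it was -2.21). Gpnmb, a lysosomal glycoprotein of lipid-laden macrophages, was at -1.55 and -0.22 on the IR+Ly arrays, against 1.49 and 0.64 on the IR arrays. The 2 IR+Ly arrays differed from each other by more than the 2 IR arrays did, without overlap between the groups. Gpnmb fell by 1.95 ± 0.33 (adjusted p = 0.0327 in limma, and 0.182 without IR 1), and the difference ranged from -2.61 to -1.29 when 1 of the 4 arrays was left out.

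Of the 25 lipid-handling macrophage genes, which hold these 3 besides lipid carriers, lipases and lysosomal proteases, 3 fell and none rose, where 0.269% of all genes tested fell. All 25 had differences below 0, from -2.59 to -0.08, where 52.9% of all genes were below 0. Both IR+Ly arrays lay below both IR arrays for 17 of the 25, where 19.7% of all genes tested did so. The median difference was -0.62, and -0.57 without IR 1, against -0.03 and 0.02 for all genes tested; without IR 1, 23 of the 25 were below 0. The mean level of the list was 1.61 and 2.09 on the IR+Ly arrays, against 2.88 and 2.52 on the IR arrays, and it was 1.70 and 1.57 on the Ly arrays and 1.40 and 1.36 on the untreated arrays. Array IR+Ly 2 lay between the IR arrays and the unirradiated arrays, which were on another slide, and IR+Ly 1 lay within the range of the Ly arrays. The part of array IR 1 in these values was measured only by leaving it out. The groups are bulk tissue, in which fewer cells of a type and less RNA per cell cannot be told apart.

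No member of the list of macrophage and monocyte markers was called. Of 27 markers, 24 were below 0, against 52.9% of all genes, and 13 had both IR+Ly arrays below both IR arrays, against 19.7%. The median was -0.54, and -0.34 without IR 1. Msr1, a scavenger receptor, had levels of -3.59 and -1.49 on the IR+Ly arrays, against -0.46 and -1.36 on the IR arrays. Its lower IR+Ly array stood far from the other, and the difference of -1.63 ± 0.65 was not called (adjusted p = 0.154 in limma). Clec4n, the receptor Dectin-2, was at 0.19 and 1.38 on the IR+Ly arrays, against 3.13 and 1.73 on the IR arrays (adjusted p = 0.0892 in limma).

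Aif1, the actin-binding protein IBA1, is also a macrophage marker but was not in that list. It was at 1.35 and 1.29 on the IR+Ly arrays, against 2.50 and 2.00 on the IR arrays. The groups did not overlap, and Aif1 fell by 0.93 ± 0.20 (adjusted p = 0.044 in limma, and 0.312 without IR 1). Among 14 genes of alternative macrophage activation, Clec10a, a galactose-type lectin, fell by 0.91 ± 0.20 (adjusted p = 0.0474 in limma, and 0.34 without IR 1). Arg1, arginase 1, was at -4.23 and -3.39 on the IR+Ly arrays, against -2.22 and -2.78 on the IR arrays, and was not called (adjusted p = 0.0712 in limma). Retnla, a secreted product of alternatively activated macrophages, was at 3.44 and 5.33 against 6.07 and 5.86 in IR (adjusted p = 0.278 in limma). The list had a median of -0.46, and of -0.28 without IR 1.

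**Figure D2:**
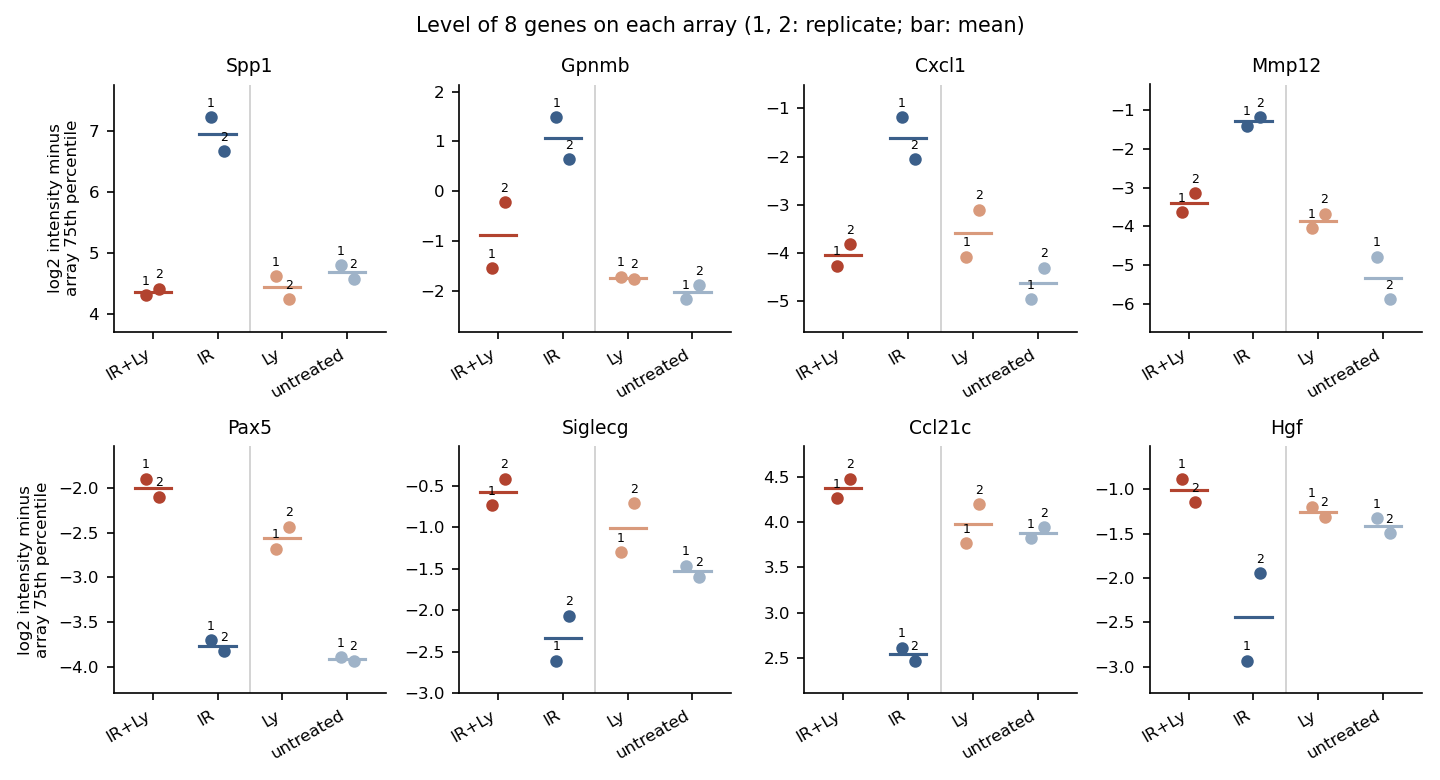
Level (vertical axes, log2 intensity minus the 75th percentile of the array) of Spp1, Gpnmb, Cxcl1, Mmp12, Pax5, Siglecg, Ccl21c and Hgf on each array of IR+Ly, IR, Ly and untreated; points are arrays numbered by replicate and bars are group means. Both IR+Ly arrays lie below both IR arrays in the upper row and above them in the lower row.

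Among chemokines that call neutrophils and monocytes, Cxcl1 fell and no other member was called, and without IR 1 none was. Cxcl1, a ligand of the neutrophil receptor CXCR2, had levels of -4.26 and -3.82 on the IR+Ly arrays, against -1.18 and -2.05 on the IR arrays. The groups did not overlap, although the IR arrays differed from each other. Cxcl1 fell by 2.42 ± 0.47 (adjusted p = 0.0397 in limma, and 0.242 without IR 1, where the difference was -1.99). It was the 1 member called of 22 CXC chemokines and acute cytokines, where 0.269% of all genes fell, and 19 of the 22 were below 0, against 52.9% of all genes, with a median of -0.73, and of -0.32 without IR 1. Il6, a cytokine of the acute phase, was well above background on both IR arrays and on neither IR+Ly array, at least 3.53-fold lower in IR+Ly, and was not called (adjusted p = 0.127 in limma). The bound sets the measured mean of the bright group against the lowest signal marked as well above background in the dim one. A measured level above that signal takes its place, and the spread between arrays is not counted.

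Of 18 CC chemokines none was called, 14 were below 0, against 52.9% of all genes, and 11 had both IR+Ly arrays below both IR arrays, against 19.7%. Their median was -0.70, and -0.63 without IR 1. Ccl2, the main chemokine of monocytes, was at -1.21 and -0.38 on the IR+Ly arrays, against 1.83 and 0.64 on the IR arrays, a difference of -2.04 ± 0.47 (adjusted p = 0.0579 in limma). Ccl7, another monocyte chemokine, was at -2.72 and -2.55 on the IR+Ly arrays, against -0.21 and -1.15 on the IR arrays (adjusted p = 0.0846 in limma). Both were lower on each IR+Ly array than on either IR array, with IR 1 the highest. Markers of neutrophils themselves were mixed: none of 17 was called, and 11 were above 0, against 47.1% of all genes. Their median was 0.46, and 0.36 without IR 1. Both IR+Ly arrays lay above both IR arrays for 6 markers, against 19.6% of all genes, and below for 2, against 19.7%. The 3 largest differences were -1.82 for Lcn2, 1.35 for Mmp9 and -1.29 for Ltf.

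Among proteins of the acute phase Orm2 and Serpina3k fell, and neither was called without IR 1. Orm2, an orosomucoid that binds small molecules in plasma, was at -4.04 and -3.50 on the IR+Ly arrays, against -0.63 and -1.97 on the IR arrays. It fell by 2.47 ± 0.45 (adjusted p = 0.0364 in limma, and 0.211 without IR 1). Serpina3k, a serine protease inhibitor, was well above background on both IR arrays and on neither IR+Ly array and was at least 2.43-fold lower in IR+Ly (adjusted p = 0.0397 in limma, and 0.0923 without IR 1). With normexp background correction its difference had the opposite sign. Saa2, a serum amyloid A, was at -5.10 and -7.27 against -1.21 and -4.13 in IR and was not called (adjusted p = 0.0715 in limma). Of 26 acute-phase genes 2 fell, where 0.269% of all genes did, and 23 were below 0, against 52.9% of all genes. Both IR+Ly arrays lay below both IR arrays for 18, against 19.7% of all genes, with a median of -1.67, and of -0.90 without IR 1.

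The complement regulator Cfi, the protease that inactivates complement component C3b, was at -2.16 and -1.26 on the IR+Ly arrays, against 0.41 and -0.39 on the IR arrays. Every IR+Ly array was below both IR arrays, and Cfi fell by 1.72 ± 0.34 (adjusted p = 0.0397 in limma, and 0.273 without IR 1). It was the 1 member called of 26 complement genes, whose median was -0.37, and -0.17 without IR 1. Mast cell genes had the lowest median of the lists, -2.09 over 10 members, and -0.92 without IR 1, and none was called. Cpa3, carboxypeptidase A3 of mast cells, was at -3.19 and -2.82 on the IR+Ly arrays, against 2.02 and -1.24 on the IR arrays. Mcpt4, a mast cell chymase, was at -2.71 and -2.41 against 2.35 and -1.28 in IR (adjusted p = 0.0934 in limma, and 0.729 without IR 1). IR 1 was far above IR 2 for both, by more than the distance from IR 2 to the IR+Ly arrays.

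**Figure D3:**
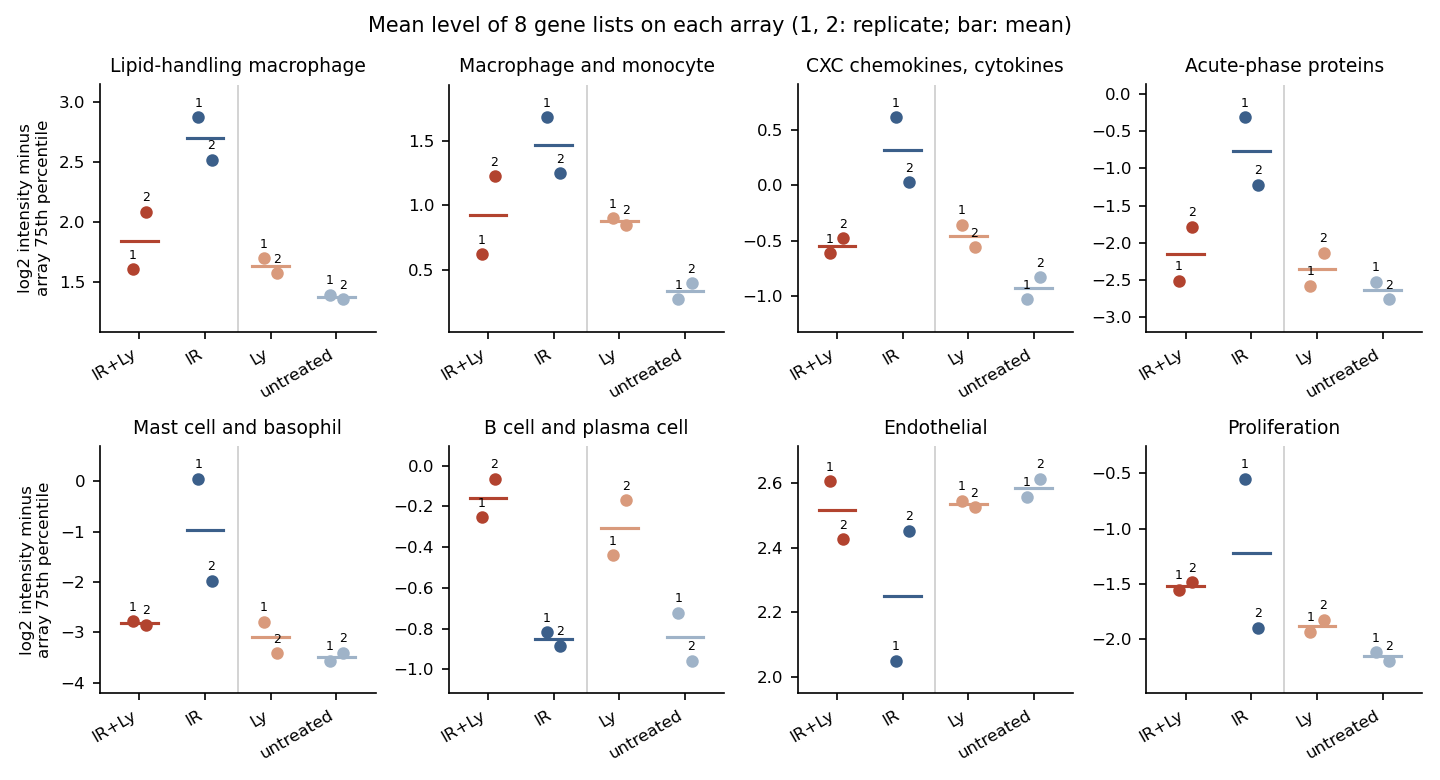
Mean level (vertical axes, log2 intensity minus the 75th percentile of the array) of 8 gene lists on each array of IR+Ly, IR, Ly and untreated; points are arrays numbered by replicate and bars are group means. The lipid-handling macrophage list and the B cell list separate IR+Ly from IR without overlap, and in the B cell list the IR arrays lie close together. In the mast cell and proliferation lists IR 1 lies far from IR 2.

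Stress-related genes that fell were metallothioneins, an endoplasmic reticulum protein and a kinase. Mt2 and Mt1 are small cysteine-rich proteins that bind zinc and copper and are induced by metals, glucocorticoids and inflammation. Mt2 was at 2.59 and 2.41 on the IR+Ly arrays, against 4.46 and 3.44 on the IR arrays, and fell by 1.45 ± 0.27 (adjusted p = 0.0364 in limma, and 0.184 without IR 1, where the difference was -0.94). Mt1 was at 2.39 and 2.54 against 3.39 and 3.04 in IR, and fell by 0.75 ± 0.16 (adjusted p = 0.044 in limma, and 0.287 without IR 1). For both the groups did not overlap, and the levels of IR+Ly were near those of the untreated arrays, which were 2.72 and 2.70 for Mt2 and 2.57 and 2.12 for Mt1.

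Both metallothioneins belong to the lists of NRF2 targets and of glucocorticoid response genes, and they were the only members called of 28 and of 17. The medians of these lists were -0.18 and -0.35, and -0.21 and -0.19 without IR 1. Manf, a secreted protein of the endoplasmic reticulum stress response, fell by 0.75 ± 0.14 (adjusted p = 0.0395 in limma, and 0.211 without IR 1) and was the 1 member called of 29 heat shock and unfolded protein genes, with a median of -0.19. Plk3, a stress-responsive polo-like kinase, fell by 0.71 ± 0.14 (adjusted p = 0.0404 in limma, and 0.242 without IR 1) and was the 1 member called of 30 p53 target genes, with a median of -0.26, and of -0.08 without IR 1. Cdkn1a, the p53-induced inhibitor of the cell cycle also known as p21, was at 1.60 and 2.41 on the IR+Ly arrays, against 3.12 and 2.30 on the IR arrays, and these overlapped (adjusted p = 0.227 in limma). Gdf15, a stress cytokine, was at 0.41 and 0.80 against 1.68 and 1.42 in IR, which did not overlap, and was not called (adjusted p = 0.103 in limma).

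Ifit1, an antiviral protein induced by interferon, fell by 1.12 ± 0.23 (adjusted p = 0.0441 in limma, and 0.314 without IR 1, where the difference was -0.71). It was the 1 member called of 35 interferon response genes, of which 17 had both IR+Ly arrays below both IR arrays, against 19.7% of all genes, and 23 were below 0, against 52.9%; the median was -0.30, and -0.15 without IR 1. Cldn4, a tight junction protein of injured alveolar epithelium, was at -4.34 and -3.85 on the IR+Ly arrays, against -2.57 and -2.71 on the IR arrays. It fell by 1.46 ± 0.32 (adjusted p = 0.0485 in limma, and 0.263 without IR 1) to a level below that of both untreated arrays. The Ly arrays, on the same slide as the untreated ones, were at -3.45 and -3.87 and also lay below them, and Ly 2 was within the range of IR+Ly. It was the 1 member called of 23 type I and transitional epithelial genes, with a median of -0.19, and of -0.14 without IR 1.

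Kcne3, a subunit of potassium channels, was one of the few genes that held without IR 1. It was at -1.99 and -1.70 on the IR+Ly arrays, against -0.93 and -0.75 on the IR arrays, and the groups did not overlap. It fell by 1.01 ± 0.15 (adjusted p = 0.0222 in limma, and 0.0415 without IR 1), with adjusted p up to 0.0904 when 1 of the 4 arrays was left out. Bora, a cofactor of the mitotic kinase Aurora A, was at -3.71 and -3.86 on the IR+Ly arrays, against -2.92 and -2.63 on the IR arrays, and fell by 1.01 ± 0.17 (adjusted p = 0.0327 in limma, and 0.0456 without IR 1). Its adjusted p reached 0.10 when 1 of the 4 arrays was left out. None of 34 proliferation genes was called. With all arrays 28 of them were below 0, against 52.9% of all genes, with a median of -0.26. Without IR 1, 30 were above 0 and 4 below, against 46.5% of all genes below, with a median of 0.37.

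Sectm1b and Zranb3 were well above background on all 4 arrays and fell by 1.58 and 1.41 (adjusted p = 0.0364 and 0.0327 in limma, and 0.211 and 0.178 without IR 1). Ly6g5c was above background on both IR arrays and on 1 of the 2 IR+Ly arrays, and was called lower (adjusted p = 0.0327 in limma, and 0.179 without IR 1). Lhx2 was above background on 1 IR array and on no IR+Ly array, and no fold is given for it. Gzmc, a granzyme of cytotoxic lymphocytes, and 6430584L05Rik were above background on both IR arrays and on no other of the 24 arrays, at least 1.31-fold and 1.14-fold lower in IR+Ly. They were tested only because they were measured in IR, so that their calls follow in large part from the filter. Of 35 T and NK cell markers no other member was called, and the median was 0.02, and -0.09 with centring on the median of the array. Under normexp background correction the differences of Gzmc, Lhx2, Ly6g5c and 6430584L05Rik had the opposite sign.

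Of the genes of B cells and plasma cells 3 rose, and none was called without IR 1. Pax5, the transcription factor that sets the identity of B cells, was at -1.90 and -2.10 on the IR+Ly arrays, against -3.70 and -3.83 on the IR arrays. The groups did not overlap and the arrays of each group lay close together; the Ly arrays were at -2.68 and -2.43 and the untreated arrays at -3.89 and -3.93. Pax5 rose by 1.77 ± 0.32 (adjusted p = 0.0356 in limma, and 0.136 without IR 1, where the difference was 1.83). Siglecg, a lectin that dampens B cell receptor signalling, was at -0.73 and -0.41 on the IR+Ly arrays, against -2.61 and -2.07 on the IR arrays, and rose by 1.76 ± 0.32 (adjusted p = 0.0364 in limma, and 0.204 without IR 1).

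Of 33 genes of B cells and plasma cells 3 rose and none fell, and 0.652% of all genes tested rose. In the list 30 differences were above 0, against 47.1% of all genes tested, with a range from -0.22 to 1.77, and 21 had both IR+Ly arrays above both IR arrays, against 19.6% of all genes tested. The median was 0.62, and 0.84 without IR 1, when 25 were above 0. The mean level of the list was -0.25 and -0.06 on the IR+Ly arrays, against -0.82 and -0.88 on the IR arrays. It was -0.44 and -0.17 on the Ly arrays and -0.72 and -0.96 on the untreated arrays, so that the arrays with Ly lay above those without it on both slides.

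Ccl21c, a chemokine of lymphatic vessels and lymphoid stroma that draws T cells and dendritic cells, was at 4.26 and 4.48 on the IR+Ly arrays, against 2.62 and 2.47 on the IR arrays. The Ly arrays were at 3.77 and 4.20 and the untreated arrays at 3.82 and 3.94, so that the IR arrays were the low ones. It rose by 1.82 ± 0.30 (adjusted p = 0.0327 in limma, and 0.0862 without IR 1). The mouse genome holds near-identical copies of this gene, and a probe may not tell them apart. Cxcl13, the chemokine of B cell follicles, was at -1.65 and -0.70 on the IR+Ly arrays, against -0.12 and -0.70 on the IR arrays, and was not called (adjusted p = 0.348 in limma). Of 13 lymphoid chemokine and stroma genes Ccl21c was the 1 called; the median was -0.01, and 0.24 without IR 1, and other scalings gave medians of both signs.

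Hgf, hepatocyte growth factor, which mesenchymal cells release and which acts on epithelium through the receptor MET, was at -0.88 and -1.14 on the IR+Ly arrays, against -2.93 and -1.94 on the IR arrays. The groups did not overlap, and IR+Ly was near the untreated level of -1.33 and -1.50. Hgf rose by 1.42 ± 0.25 (adjusted p = 0.0332 in limma, and 0.146 without IR 1, where the difference was 0.93). It was the 1 member called of 37 growth factors of lung repair, with a median of 0.02, and of -0.09 with centring on the median of the array. Reln, a secreted glycoprotein known from neuronal migration and also made by lymphatic endothelium, was at -1.06 and -1.0 on the IR+Ly arrays, against -2.30 and -2.17 on the IR arrays. It rose by 1.21 ± 0.23 (adjusted p = 0.0364 in limma, and 0.184 without IR 1). Elmo1, an adaptor in the engulfment of dying cells, rose by 1.32 ± 0.26 (adjusted p = 0.0395 in limma, and 0.179 without IR 1, where the difference was 0.78).

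Zbed3, Airn and E230016M11Rik were above background on all 4 arrays and rose by 1.23, 1.16 and 1.09 (adjusted p = 0.044, 0.0397 and 0.0474 in limma). Without IR 1 their differences were 0.68, 0.74 and 0.79 (adjusted p = 0.236, 0.241 and 0.361 in limma). A330023F24Rik, Olfr550, an olfactory receptor, and Znrf4 were above background on both IR+Ly arrays and on neither IR array. A330023F24Rik and Znrf4 were at least 2.11-fold and 1.74-fold higher in IR+Ly (adjusted p = 0.0327 for both in limma). Olfr550 was 2.13-fold higher (adjusted p = 0.0329 in limma), which is the estimate and no bound, since its measured IR levels were used. Without IR 1 the differences were 1.09 for A330023F24Rik, 1.86 for Znrf4 and 1.02 for Olfr550. Dusp15, a dual-specificity phosphatase, was above background on 1 of the 2 IR+Ly arrays and on neither IR array, at least 1.11-fold higher in IR+Ly. Vmn1r212, a vomeronasal receptor, was above background on none of the 4 arrays, and no fold is given for it. 5530601H04Rik, a transcript of the X chromosome, was at -2.63 and -2.99 on the IR+Ly arrays, against -3.69 and -3.81 on the IR arrays. It rose by 0.94 ± 0.13 (adjusted p = 0.0109 in limma, and 0.0171 without IR 1).

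Genes of TGF-beta signalling itself were not called in either direction. Among the ligands, Tgfb1 was at 0.16 and 0.28 on the IR+Ly arrays, against -0.23 and 0.47 on the IR arrays. The groups overlapped, and the 95% confidence interval of the difference ran from -0.31 to 0.51 (adjusted p = 0.774 in limma). The intervals ran from -0.17 to 0.41 for Tgfb2 and from -0.73 to 0.37 for Tgfb3, and among the receptors from -0.68 to 0.15 for Tgfbr1 and from -0.50 to 0.11 for Tgfbr2. Differences within these intervals could not be told from 0 with 2 arrays in each group. Over 21 ligands, receptors and activators the median was 0.08, and 0.10 without IR 1, and it was -0.03 with centring on the median of the array. Both IR+Ly arrays lay above both IR arrays for 8 of the 21, against 19.6% of all genes, and below for 3, against 19.7%. The differences ran from -1.52 for Dcn to 1.08 for the receptor Acvrl1. Acvrl1 was at 1.98 and 2.25 on the IR+Ly arrays, against 0.31 and 1.75 on the IR arrays, and its difference was 0.36 without IR 1.

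Genes that TGF-beta is known to induce showed no call among 31, with 20 below 0, against 52.9% of all genes. Their median was -0.24, and -0.09 without IR 1. Inhba, the activin A subunit, had the largest negative difference of the list, with levels of -1.41 and -0.81 on the IR+Ly arrays, against 1.71 and -0.26 on the IR arrays (adjusted p = 0.069 in limma, and 0.467 without IR 1). Itgb6, the integrin subunit that activates latent TGF-beta, was at 0.86 and 0.79 against 3.21 and 1.24 in IR (adjusted p = 0.104 in limma). In both, IR 1 was the high array, and IR 2 was much nearer to the IR+Ly arrays.

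For the feedback inhibitor Smad7 the difference was -0.14 ± 0.17, for the Smad corepressor Skil -0.28 ± 0.18 and for the matricellular protein Ccn2 -0.30 ± 0.26, with adjusted p of 0.327 to 0.629 in limma. Pmepa1, another feedback inhibitor, was at -0.34 and 0.41 on the IR+Ly arrays, against -2.42 and -0.08 on the IR arrays, and the groups overlapped. Acta2, the smooth muscle actin of myofibroblasts, was at 4.77 and 5.12 against 4.58 and 4.29 in IR (adjusted p = 0.215 in limma).

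Matrix genes were likewise not called, with Spp1 and Mmp12, described above, as the exceptions. Col1a1, the main chain of type I collagen, was at 4.38 and 4.32 on the IR+Ly arrays, against 5.18 and 4.41 on the IR arrays. Col3a1, type III collagen, was at 4.84 and 4.53 against 5.74 and 4.95 in IR. For both, all 4 values were above those of the untreated arrays, which were 3.48 and 3.1 for Col1a1 and 4.10 and 3.58 for Col3a1, on another slide. The differences were -0.45 ± 0.39 and -0.66 ± 0.37 (adjusted p = 0.481 and 0.276 in limma), and -0.06 and -0.27 without IR 1. Of 31 genes of fibrillar collagens and their assembly 19 were below 0 with all arrays, against 52.9% of all genes. Without IR 1, 11 were below 0, against 46.5% of all genes. The median was -0.14 with all arrays and 0.11 without IR 1.

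Fn1, fibronectin, was at 1.55 and 2.65 on the IR+Ly arrays, against 2.98 and 2.25 on the IR arrays, and Tnc, tenascin C, at -1.23 and -0.42 against 1.06 and -0.59 in IR. Both overlapped between the groups. Timp1, an inhibitor of matrix proteases, was at 1.73 and 1.62 on the IR+Ly arrays, against 4.72 and 2.79 on the IR arrays, a difference of -2.08 ± 0.56 that was not called (adjusted p = 0.0805 in limma, and 0.627 without IR 1, where it was -1.11). Of 25 matrix proteases and inhibitors 21 were below 0, with a median of -0.46, and of -0.15 without IR 1; of 24 matricellular and elastic fibre proteins 20 were below 0, with a median of -0.42, and of -0.18 without IR 1. Over all genes 52.9% were below 0. Spp1 was the 1 matricellular member called.

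The PDGF family and the kinases that imatinib blocks were not called, with a median of 0.04 over 15 genes, and of 0.05 without IR 1; it was -0.06 with centring on the median of the array. The 95% confidence intervals of the differences were -0.20 to 0.28 for the ligand Pdgfa, -1.02 to 0.21 for the receptor Pdgfra and -0.30 to 0.32 for Pdgfrb. Pdgfb, another ligand, was at 0.12 and 0.57 on the IR+Ly arrays, against -1.32 and 0.23 on the IR arrays (adjusted p = 0.428 in limma). Fibroblast and pericyte genes had a median of -0.21 over 26, and of 0.05 without IR 1, and endothelial and lymphatic vessel genes of 0.25 over 33, and of 0.03 without IR 1. In the first list no gene was called with all arrays, and Limch1, a regulator of contractile actomyosin, was called without IR 1 (adjusted p = 0.0282 in limma, and 0.0565 with all arrays).

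**Figure D4:**
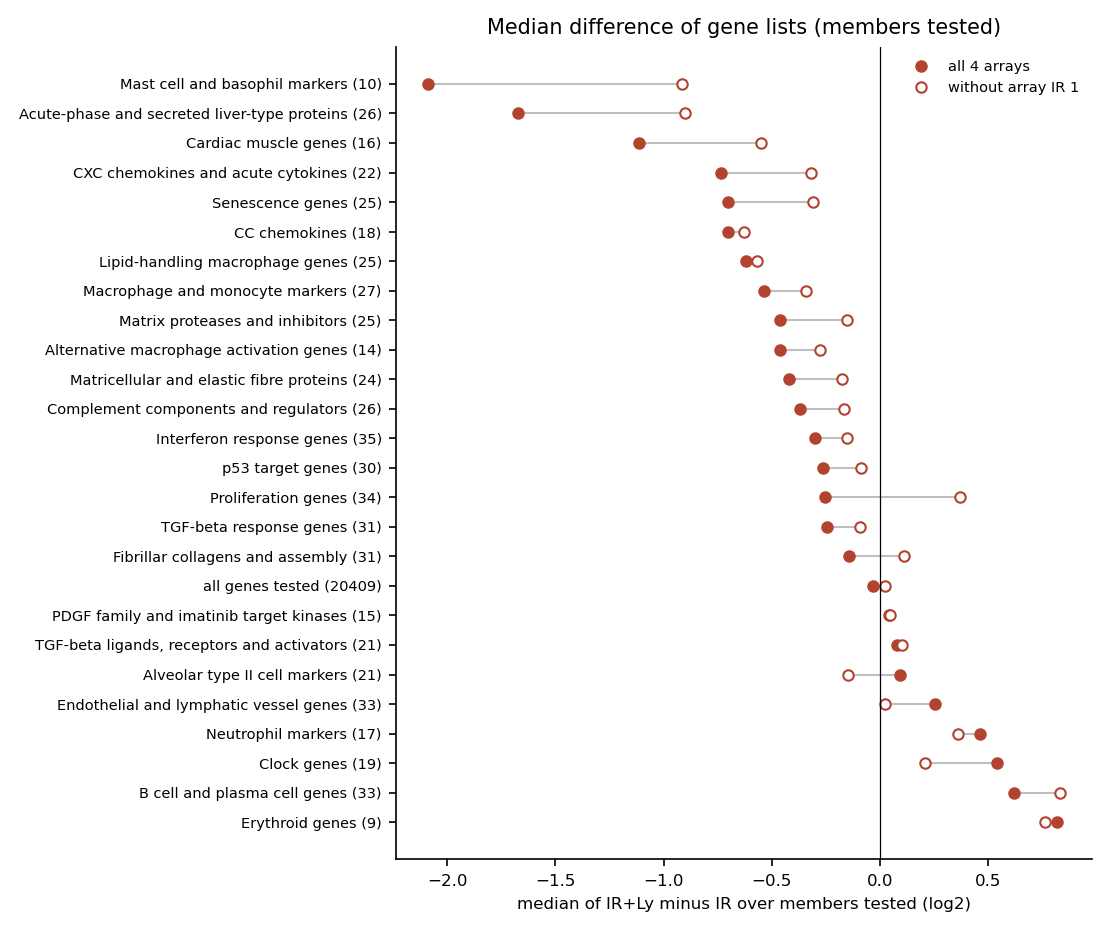
Median difference of IR+Ly minus IR (horizontal axis, log2) over the tested members of 25 gene lists and over all genes tested, with all 4 arrays (filled) and without array IR 1 (open); the number of members tested stands in parentheses. The lipid-handling macrophage and CC chemokine medians move little without IR 1, the mast cell and acute-phase medians move toward 0, and those of proliferation genes, fibrillar collagens and type II cell markers change sign.

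Ly without irradiation was set beside these differences on other arrays, Ly against untreated on slide 1. Of the 20409 genes 1 was called, 0.0049%, and 1165 had an unadjusted p under 0.05. The 55 genes lower in IR+Ly than in IR had a median difference of -0.07 in Ly against untreated, and the 133 higher genes of 0.16; 57 of the 188 had the opposite sign there. Mmp12 was at -4.05 and -3.67 on the Ly arrays, against -4.78 and -5.87 on the untreated arrays, the opposite direction to the irradiated groups. It was well above background on only 1 of the 2 untreated arrays, so that the size of this difference is uncertain. Pax5 lay above untreated in Ly by 1.36, in the same direction as in the irradiated groups, and was not called there.

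The difference of the 2 differences, (IR+Ly minus IR) minus (Ly minus untreated), was called for 1 gene of 20409, 0.0049%, and 2222 genes had an unadjusted p under 0.05. That gene was the cDNA clone AK034336, which was above background on the IR arrays alone, so that its call follows in large part from the filter. For Mmp12 the difference of differences was -3.56 ± 0.60, for Cxcl1 -3.46 ± 0.66, for Orm2 -3.25 ± 0.64 and for Spp1 -2.34 ± 0.38, each with an adjusted p of 0.18 in limma. The value for Mmp12 rests in part on an untreated array on which it was not well above background. The list medians of the difference of differences were -0.90 for lipid-handling macrophage genes, -1.10 for macrophage and monocyte markers and -1.37 for CC chemokines, against 0.23 for B cell and plasma cell genes and -0.00 for all genes tested. A difference between irradiated and unirradiated lung in the response to Ly was therefore called for no gene with a symbol.

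Finally, genes that differed between irradiated and unirradiated arrays of other mice were followed in IR+Ly and IR. These were 3480 genes that rose and 3351 that fell on average over the Imatinib, Su, Ly+Imatinib and Ly+Su arms. None of the arrays of these arms are in the groups compared here. The unirradiated arrays lay on slides 2 and 3 and the irradiated ones on slides 5 and 6. Irradiation and slide therefore cannot be told apart in these genes. Of the spots, 62.0% to 66.9% were well above background on slides 2 and 3, and 65.0% to 78.5% on slides 5 and 6. Of the genes that rose, 49 (1.41%) were higher and 14 (0.402%) lower in IR+Ly than in IR, against 0.652% and 0.269% of all genes tested. Of those that fell, 13 (0.388%) were higher and 11 (0.328%) lower. Their median differences were 0.03 for the genes that rose and -0.07 for those that fell, against -0.03 for all genes tested. The mean level of the genes that rose was -3.09 and -2.93 on the IR+Ly arrays, against -3.04 and -3.04 on the IR arrays, and -3.33 and -3.02 on the Ly and -3.32 and -3.23 on the untreated arrays. The IR arrays lay within the range of the IR+Ly arrays, so that the mean of these genes did not separate the groups.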

How the data were processed

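Per the labels, total RNA of mouse lung was amplified, labelled with Cy3 and hybridised to 1 array per sample. Per the file headers and the submitters' processing notes, Agilent Feature Extraction 9.1.3.1 made the deposited intensity, background-subtracted and detrended, not scaled from one array to another. The submitters' series table, also deposited, is that intensity times a constant per array, rounded. Arrays have no read depth; their number, 2 in each group, limits the precision.

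From these files, spots of a probe were averaged, 619 of 41174 probes with outlier spots were dropped and 40555 kept. Genes were named by accession, symbol or synonym through RefSeq (GRCm38.p6), and the probe with the highest mean stood for its gene. The log2 intensity minus the log2 75th percentile of each array was analysed with limma 3.58.1 in R 4.3.3, with 12 group means over all 24 arrays (12 residual degrees of freedom, and 2.10 from the shared variance), two-sided p and Benjamini-Hochberg adjustment over 20409 genes. On simulated data with 100 genes changed by each of log2 1 and log2 2 in IR+Ly against IR, among 20409 genes, 52% and 86% were recovered. The simulation gave a gene the same spread in all groups. In the data the standard deviation, over genes, of the difference between the 2 arrays was 0.79 in IR and 0.53 in IR+Ly. Recovery with the wider spread of IR was not simulated. The IR and IR+Ly deviations by replicate number correlated at 0.149, and over 66 pairs of groups at a median of 0.036, so that replicate numbers were not taken as pairs. One title and source name disagree on the number of an IR+Su sample; the title was used. Named genes were the 15 highest and 15 lowest called genes with a symbol and no overlap, the genes also called without IR 1, called list members, the 3 largest differences of each list, the 8 smallest p of the difference of differences and a fixed set; the text gives those of known function. AK034336 was chosen after its values were seen. The members, gene lists and genes were chosen with earlier results of these data known. Results for some genes are not reported here.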

Additional observations from a re-analysis of the deposited data

Results flagged for a closer look

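The cDNA clone AK034336, for which the files give no gene symbol, was the 1 gene whose difference with Ly itself differed between irradiated and unirradiated lung. It was at -7.64 and -7.49 on the IR+Ly arrays, against -4.56 and -4.04 on the IR arrays, and at -7.99 and -7.28 on the Ly arrays, against -7.50 and -7.56 on the untreated arrays. It was well above background on both IR arrays and on no other of the 24 arrays. It was tested only because it was measured in IR, so that its being lower in IR+Ly, by at least 2.00-fold, was largely fixed by the filter, and so was the difference of the 2 differences. That difference, taken over 3 groups not above background, was -3.16 and no measured size (adjusted p = 0.00773 in limma). With normexp background correction the difference of differences was 1.43 (adjusted p = 0.361), and it was not called with array weights, an intensity trend or the compared groups alone in the fit (adjusted p = 0.265, 0.145 and 0.44).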

How the results depend on the processing

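The count of 133 genes higher in IR+Ly than in IR was 56 with quantile normalization, 50 with centring on the median, 0 with normexp and the 75th percentile, 10 with no filter, 218 over every probe, 0 with the compared groups alone in the fit, 0 with array weights and 57 with normexp and quantile normalization, an alternative chosen after seeing the data. The count of 55 lower genes was 1 with normexp, 8 with no filter, 0 with the groups alone, 1 with array weights and 85 with normexp and quantile normalization. Unadjusted p under 0.05 was reached by 1037 genes with the groups alone in the fit, 1351 with array weights and 2915 with normexp. Median centring and quantile normalization moved the share of higher genes among those called to 41.7% and 57.1%, against 70.7%. Leaving out 1 array gave 10 to 3495 higher and 5 to 4271 lower genes. The replicate block gave 176 higher and 81 lower genes, and 1 each in the other 2 contrasts. Other settings stayed within 1.5 times.

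The 1 gene called in Ly against untreated became 8 with quantile normalization, 5 with median centring, 6 with normexp and quantile normalization, 0 with genes above background on all 24 arrays, 0 with the groups alone, 0 with an intensity trend and 0 to 47 without 1 array. The 1 gene called in the difference of differences became 2 with quantile normalization, 4 with normexp and quantile normalization, 0 with normexp, genes above background on all 24 arrays, the groups alone, array weights or an intensity trend, and 2 to 4427 without 1 array. Of members of the gene lists, 20 were called as reported, 13 were called with quantile normalization, 1 with normexp and 1 to 335 without 1 array. The median of the irradiation genes that rose was -0.072 with median centring and 0.49 with normexp, against a shift of all genes of -0.14 and 0.20, and that of the genes that fell was -0.18 with median centring.

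Of 39 called genes named here, 34 lost their call without IR 1, 35 without IR+Ly 1, 31 without IR+Ly 2, 33 with normexp, 35 with no filter, 39 with the groups alone and 38 with array weights. With normexp another 5 also lost their call and had the opposite sign, all of them dim genes. Serpina3k was at 0.10, Gzmc at 0.36, Lhx2 at 0.55, Ly6g5c at 0.085 and 6430584L05Rik at 0.18. No other named gene that was called changed sign under the settings run. The cause of these changes was not tested. A random block for the slide could not be fitted as a separate value, since each group lies on 1 slide and its estimated correlation was 0.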

Other observations

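Erythroid genes, clock genes and cardiac muscle genes also differed in level between the arrays. Of 9 erythroid genes 8 were above 0 in IR+Ly against IR, where 47.1% of all genes were, and none was called. Their median was 0.82, and 0.77 without IR 1. Alas2, the first enzyme of haem synthesis in red cells, was at 4.22 and 3.78 on the IR+Ly arrays, against 1.94 and 2.74 on the IR arrays. Of 19 clock genes 13 were above 0, against 47.1% of all genes, with a median of 0.54, and of 0.21 without IR 1, and none was called. Nr1d1, the repressor REV-ERB alpha, was at 1.5 and 1.43 on the IR+Ly arrays, against -1.74 and 1.03 on the IR arrays, so that IR 1 alone was low. Cardiac muscle genes, which mouse lung samples carry through the pulmonary veins, had a median of -1.11 over 16, and of -0.55 without IR 1, with mean levels of -1.41 and -2.56 on the IR+Ly arrays, against -0.61 and -1.37 on the IR arrays; on the Ly and untreated arrays they were at -2.25 and -1.12 and at -0.07 and 0.23.

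In Ly against untreated the 1 gene called was a transcript with an Ensembl identifier and no symbol in the files. It was above background on both Ly arrays and on no other array, at -4.64 and -3.30, against -7.47 and -7.52 on the untreated arrays. It was tested only because it was measured in Ly, so that its call was largely fixed by the filter. Genes above background on both arrays of 1 group and on no other array numbered 0 in IR+Ly and 9 in IR, and 0 to 64 in the other 10 groups. Of the 9 in IR, 5 were called in IR+Ly against IR.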
